A study of Mus musculus with 8 samples.

Results

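The genes described here are 9 transcription factors linked to the naive or resting state of T cells, namely Tcf7, Lef1, Bach2, Satb1, Id3, Myb, Ets1, Runx1 and Tox. That name does not hold for every member in these data, since Runx1 and Tox were higher in activated than in resting WT cells. They were taken by symbol from the deposited table of read counts, and they are 9 of the 27594 genes listed there. The study sorted regulatory T (Treg) cells, the CD4+ T cells that express Foxp3 and restrain immune responses, to ask what the forkhead factor Foxp1 does in them. It compared resting Treg (rTreg) cells, sorted as CD4+YFP+CD44lowCD62Lhigh, with activated Treg (aTreg) cells, sorted as CD4+YFP+CD44highCD62Llow, by RNA sequencing. The cells came from spleens and peripheral lymph nodes of C57BL/6 mice aged 6 to 8 weeks. WT libraries were from Foxp3-YFP-Cre (Foxp3Cre) mice and Foxp1-deficient libraries from Foxp1fl/fl Foxp3-YFP-Cre (Foxp1f/fFoxp3Cre) mice. Both genotypes therefore carried the same Cre, which the Foxp3 locus drives together with YFP, and the deletion is limited to cells that have expressed Foxp3. The 8 libraries form 4 groups of 2 replicates, named by genotype and subset. The labels do not say how many mice each library pools, so the p-values measure only the spread between these libraries.

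A resting T cell keeps a set of factors that hold it in a quiescent, recirculating state, and several of these factors are lost when the cell takes on an effector program. Tcf7 (which encodes TCF1) and Lef1 are high-mobility-group (HMG) box factors that act with β-catenin or with Groucho/TLE corepressors, Bach2 is a repressor that restrains effector genes such as Prdm1, and Satb1 is a chromatin organizer of developing and naive T cells. Id3 blocks the DNA binding of E proteins, Myb is a regulator of progenitors and lymphocytes, Ets1 and Runx1 are factors that bind the Foxp3 locus or the Foxp3 protein itself, and Tox is another HMG box factor, needed for CD4 lineage development in the thymus. The study's introduction also names Myb among the factors that matter for the differentiation of aTreg cells.

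Positions are those of mouse build GRCm38 in the GENCODE M21 annotation, in which all 9 genes are protein coding and Bach2, Id3 and Tox share chromosome 4. Tcf7 is at chr11:52252371-52283014 on the minus strand, Lef1 at chr3:131110471-131224356 on the plus strand, Bach2 at chr4:32238804-32586108 on the plus strand and Satb1 at chr17:51736187-51833290 on the minus strand. Id3 is at chr4:136143497-136145755 on the plus strand, Myb at chr10:21124935-21160984 on the minus strand, Ets1 at chr9:32636221-32757820 on the plus strand, Runx1 at chr16:92601466-92826149 on the minus strand and Tox at chr4:6686353-6991557 on the minus strand. Promoter windows from RefSeq (GRCm38.p6) matched 7 of the 9 genes, all but Ets1 and Tox. The 4 printed here belong to Satb1, Bach2, Lef1 and Myb, the genes for which an expression change was called, and each holds the 250 bases before the most 5′ RefSeq start, read 5′ to 3′ on the strand of the gene, with CG dinucleotides in capitals. The windows are chr17:51833291-51833540 (minus), chr4:32417185-32417434 (plus), chr3:131110047-131110296 (plus) and chr10:21160985-21161234 (minus), and that of Bach2 lies inside the GENCODE gene.
Satb1: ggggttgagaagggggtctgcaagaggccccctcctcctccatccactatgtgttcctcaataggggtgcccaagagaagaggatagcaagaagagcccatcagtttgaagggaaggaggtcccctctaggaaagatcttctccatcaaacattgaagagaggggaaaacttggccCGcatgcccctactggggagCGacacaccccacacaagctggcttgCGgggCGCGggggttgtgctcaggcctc
Bach2: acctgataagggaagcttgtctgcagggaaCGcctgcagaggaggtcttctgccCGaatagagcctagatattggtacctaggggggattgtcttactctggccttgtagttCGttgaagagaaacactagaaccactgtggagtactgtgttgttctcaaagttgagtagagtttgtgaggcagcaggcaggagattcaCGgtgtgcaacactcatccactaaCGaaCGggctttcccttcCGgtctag
Lef1: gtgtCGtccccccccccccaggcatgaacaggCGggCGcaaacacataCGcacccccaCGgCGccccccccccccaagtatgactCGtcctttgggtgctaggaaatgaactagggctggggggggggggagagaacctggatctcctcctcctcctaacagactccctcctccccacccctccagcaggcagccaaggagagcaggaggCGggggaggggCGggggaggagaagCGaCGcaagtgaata
Myb: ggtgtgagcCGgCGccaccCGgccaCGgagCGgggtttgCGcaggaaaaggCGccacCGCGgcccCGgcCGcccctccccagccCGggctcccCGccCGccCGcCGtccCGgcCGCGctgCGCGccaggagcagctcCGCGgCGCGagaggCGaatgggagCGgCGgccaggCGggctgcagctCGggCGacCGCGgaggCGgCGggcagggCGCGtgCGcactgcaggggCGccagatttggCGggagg

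The 4 windows differ in base composition. Myb had 40 CG dinucleotides and 81.2% G or C, more CG than 98.7% of the 32851 mouse windows of the same length, whose median is 6. The windows of Satb1, Bach2 and Lef1 had 5, 7 and 11. Each window was searched on both strands for 3 core motifs, TGTTTAC of forkhead factors, TGTGGTT of RUNX factors and CTTTGAT of TCF and LEF factors, none of which contains another. They occur in 3.17%, 4.4% and 3.21% of all mouse windows, and none was found in the 16 windows of the 7 matched genes, which says only that these letters are not in those bases.

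The libraries held between 6373170 and 15268623 counted reads, with a median of 12327710, so that 3 reads correspond to between 0.192 and 0.478 CPM (reads scaled to a common library size with edgeR's TMM factors). The gate was visible in the RNA. Cd44 was at 29.6 to 45.3 CPM in the rTreg libraries and 174 to 214 CPM in the aTreg libraries. The targeted gene, Foxp1, was at 353 and 384 CPM in WT rTreg, 234 and 230.3 CPM in WT aTreg, 342 and 338 CPM in Foxp1-deficient rTreg, and 126 and 102 CPM in Foxp1-deficient aTreg cells. In aTreg cells it was 2.05-fold lower in the Foxp1-deficient libraries (adjusted p = 0.0019), but in rTreg cells the change was -0.12 ± 0.09 (log2, SE; adjusted p = 0.46). The count is over the whole gene, and reads of the floxed part were not counted apart. It does not check the genotype label of the rTreg libraries. All 6 T cell and Treg identity genes were present, with Foxp3 at 429 to 646 CPM in every library. The summed CPM of 7 B cell markers was 172 to 249 in rTreg and 624 to 793 in aTreg libraries, nearly all of it from Ighm. Ms4a1 had at most 4 reads in any library. Of the 4 B cell markers tested, 3 were called higher in aTreg than in rTreg cells in both genotypes. They were Ighm, Cd79b (4.33 and 5.34 CPM in WT rTreg, 15.8 and 15.83 CPM in WT aTreg) and Pax5, which had at most 15 reads. Of all tested genes 9.50% were called higher in WT and 11.3% in Foxp1-deficient cells. The summed CPM of 7 myeloid, 6 CD8 and NK cell and 6 erythroid markers stayed between 0.867 and 41.4 in each library. Of the 3 immature thymocyte markers read from the table, Cd1d1 carried nearly all of the sum, with 53.1 to 102 CPM. Mpo was called higher in Foxp1-deficient cells of both subsets, at 1.01 to 5.70 CPM against 0 to 0.329 CPM. The part of these markers in the results below was not tested.

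All 9 genes were among the 14540 that passed the filter on low counts, each with at least 247 reads in every library. Per gene length, on the deposited FPKM scale (fragments per kilobase of gene length, scaled to the library total), they covered a range from among the most abundant transcripts to below the median. Tcf7 was the highest in WT rTreg cells, with 358 ± 31.7 FPKM (SD, n = 2), and Ets1 followed with 281 ± 12.1 FPKM. Both were above at least 99.1% of tested genes in all 4 groups. Satb1 (38.4 ± 0.387 FPKM), Id3 (37.3 ± 2.16) and Lef1 (34.1 ± 3.39) came next in WT rTreg cells, and the neighbours among these 3 overlapped in their replicate values. Bach2 (25.2 ± 0.138 FPKM), Runx1 (10.01 ± 0.882) and Tox (8.55 ± 1.29) followed, with Runx1 and Tox overlapping, and Myb was the lowest at 3.71 ± 1.07 FPKM. The order differed in WT aTreg cells. There Tcf7 and Ets1 were still first at 299.6 ± 39.0 and 259 ± 3.83 FPKM and Id3 came next, but Tox stood at rank 4 with 17.2 ± 5.33 FPKM, overlapping Lef1 at 17.1 ± 4.31 FPKM, while Satb1 had moved to rank 8 with 8.48 ± 4.65 FPKM. In Foxp1-deficient aTreg cells Bach2 was at rank 8 with 3.73 ± 0.713 FPKM, just above Myb at 2.69 ± 0.556 FPKM, and the replicates of the 2 genes did not overlap.

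**Figure D1:**
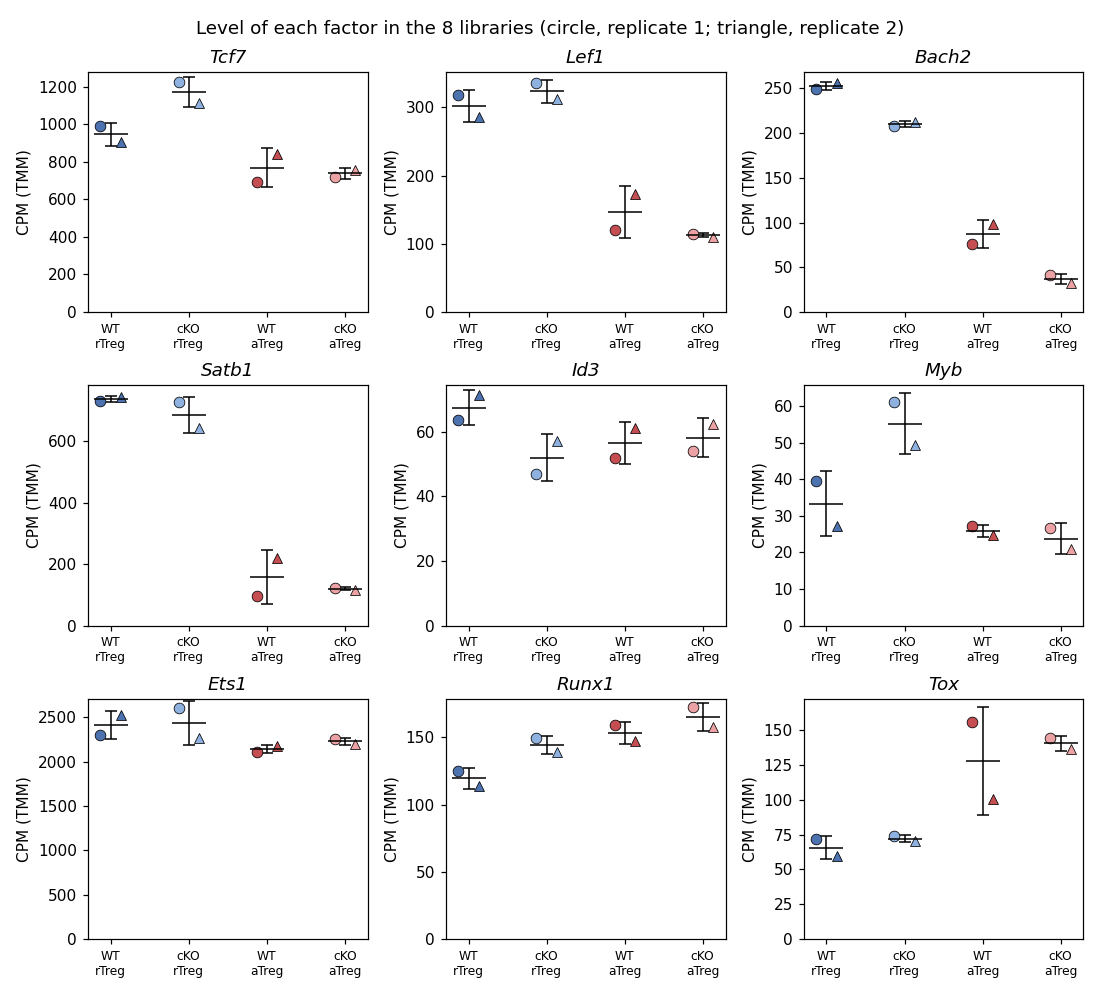
Level of the 9 factors in CPM (vertical axes, each starting at 0) in the 4 groups, with a circle for replicate 1, a triangle for replicate 2, a long bar for the mean and error bars of 1 SD (n = 2; cKO is Foxp1-deficient). Satb1, Bach2 and Lef1 are lower in every aTreg than in every rTreg library, Tox is higher, and Myb is highest in the Foxp1-deficient rTreg libraries at 61.0 and 49.3 CPM.

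The first comparison asked which of the factors differ between activated and resting Treg cells when Foxp1 is intact. In WT cells 3 of the 9, Satb1, Bach2 and Lef1, fell by at least 2-fold from rTreg to aTreg cells at an adjusted p under 0.05 (edgeR quasi-likelihood test, Benjamini-Hochberg over all tested genes), and none of the other 6 was called higher. Of all tested genes 12.3% were called in this comparison, 2.83% lower and 9.50% higher. With the adjusted p alone, which 31.9% of all genes passed, 6 of the 9 were lower (13.6% of all genes) and 2 were higher (18.2%). The median log2 change of the 9 was -0.30, against -0.0046 for all tested genes. All 9 had groups that did not overlap, 7 with aTreg below rTreg cells (26.8% of all genes) and 2 above (30.1%).

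Satb1, the chromatin organizer, was at 731 and 745 CPM in WT rTreg cells and at 96.0 and 219 CPM in WT aTreg cells. Both rTreg libraries were far above both aTreg libraries, although the latter differed widely from each other. The log2 change was -2.26 ± 0.29 (SE), a 4.80-fold decrease with an adjusted p of 9.6e-04, and WT aTreg cells kept 21.4% of the WT rTreg level. In bulk RNA such as this, fewer cells that express a gene and less of its RNA per cell cannot be told apart. Bach2, the repressor of effector genes, stood at 249 and 256 CPM in WT rTreg cells and at 76.4 and 98.3 CPM in WT aTreg cells. The replicates lay close together on the resting side and the groups were far apart. Its log2 change was -1.53 ± 0.13 (adjusted p = 1.4e-04), a 2.88-fold decrease.

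The HMG box factors of the resting state moved unequally. Lef1 had 318 and 286 CPM in WT rTreg and 120.3 and 173 CPM in WT aTreg cells, a log2 change of -1.04 ± 0.15 (adjusted p = 0.0016), just past the 2-fold threshold. It was under that threshold without WT rTreg replicate 1 (-0.90) or without WT aTreg replicate 1 (-0.75), though the adjusted p stayed at 0.0154 and 6.5e-04. It was also under it on log2(FPKM + 1), at -0.97 with and without the filter. Tcf7 had 991 and 904 CPM in WT rTreg and 694 and 841 CPM in WT aTreg cells, so the closest libraries of the groups were only a little apart. Its log2 change of -0.30 ± 0.10 had an adjusted p of 0.0463, well inside 2-fold. WT aTreg cells thus kept 81.0% of the rTreg level of Tcf7 and 48.6% of that of Lef1. Tox, another HMG box gene, went the other way. It was at 71.5 and 59.7 CPM in WT rTreg cells and at 155 and 100.4 CPM in WT aTreg cells, both of the latter higher. The log2 change was 0.94 ± 0.13 (adjusted p = 0.0013), a 1.92-fold difference that narrowly missed the 2-fold threshold and passed it, at 1.18, without WT aTreg replicate 2.

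The remaining 4 factors differed by less than Lef1 and Tox. Id3, the E protein inhibitor, was at 63.6 and 71.4 CPM in WT rTreg and at 51.9 and 61.3 CPM in WT aTreg cells (log2 change -0.26 ± 0.06, adjusted p = 0.0185). Myb was at 39.6 and 27.1 CPM in WT rTreg and at 27.1 and 24.7 CPM in WT aTreg cells, where the nearest libraries were almost level (-0.34 ± 0.11, adjusted p = 0.0479). Runx1, which binds DNA together with Cbfb, rose from 125 and 114 CPM to 159 and 147 CPM (0.36 ± 0.06, adjusted p = 0.0022). All 3 stayed well inside 2-fold. Without the replicate block the adjusted p was 0.123 for Tcf7, 0.290 for Id3 and 0.313 for Myb, so these passed only with it. Ets1, the most counted of the 9, had 2297 and 2523 CPM in WT rTreg and 2112 and 2170.3 CPM in WT aTreg cells, and its change of -0.17 ± 0.07 had an adjusted p of 0.112, with a 95% interval from -0.34 to -0.0031.

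The same comparison in Foxp1-deficient cells gave 4 called genes, Satb1, Bach2, Lef1 and Myb, all lower in aTreg cells. Here 15.7% of all tested genes were called, 4.39% lower and 11.3% higher. The adjusted p alone was passed by 40.1% of all genes, 18.2% lower and 21.9% higher, and by 5 lower and 2 higher factors of the 9. The median log2 change of the 9 was -0.67 and that of all genes -0.018. In 8 of the 9 the groups did not overlap, Id3 being the exception, with 6 below and 2 above (30.3% and 31.4% of all genes).

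Satb1 fell from 727 and 643 CPM in Foxp1-deficient rTreg cells to 123 and 117 CPM in Foxp1-deficient aTreg cells, a log2 change of -2.52 ± 0.30 (adjusted p = 4.1e-04). The replicates were closer together here than in WT aTreg cells. Bach2 went from 208 and 212 CPM to 40.9 and 32.6 CPM, a fall close to that of Satb1, with a log2 change of -2.51 ± 0.14 (5.71-fold, adjusted p = 1.3e-05). Foxp1-deficient aTreg cells kept 14.6% of the WT rTreg level of Bach2, while WT aTreg cells kept 34.6%. Lef1 decreased from 335 and 312 CPM to 115 and 110.4 CPM (-1.52 ± 0.15, adjusted p = 1.9e-04). Leaving out any 1 of the 8 libraries kept its fall between -1.62 and -1.40.

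Myb decreased from 61.0 and 49.3 CPM in Foxp1-deficient rTreg cells to 26.7 and 20.8 CPM in Foxp1-deficient aTreg cells, a log2 change of -1.22 ± 0.11 (adjusted p = 1.0e-04). On log2(FPKM + 1), with and without the filter on low values, the change was -0.93, short of the 2-fold threshold. Both aTreg libraries were near the WT aTreg values, and the rTreg libraries were above all others. Tcf7 had 1226 and 1114 CPM in Foxp1-deficient rTreg cells and 718 and 757 CPM in Foxp1-deficient aTreg cells, a log2 change of -0.67 ± 0.10 (adjusted p = 0.0012), inside 2-fold. Tox was at 73.8 and 70.2 CPM in rTreg and at 144 and 137 CPM in aTreg cells, nearly the same 1.94-fold difference as in WT cells (0.96 ± 0.13, adjusted p = 8.9e-04). Runx1 was at 149 and 139 CPM and then at 172 and 158 CPM (0.19 ± 0.06, adjusted p = 0.0271, and 0.179 without the block). Id3 was at 46.9 and 57.1 CPM in rTreg and at 54.0 and 62.5 CPM in aTreg cells, so the groups overlapped, with a change of 0.16 ± 0.07 (adjusted p = 0.0826). Ets1 was at 2607 and 2263 CPM in rTreg and 2258 and 2201 CPM in aTreg cells (-0.13 ± 0.07, adjusted p = 0.204).

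**Figure D2:**
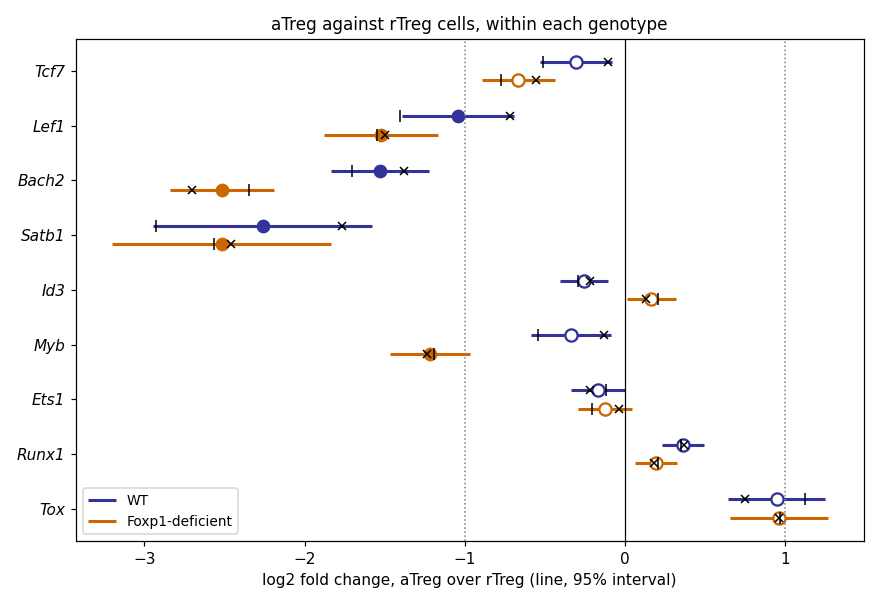
Log2 fold change of each factor between aTreg and rTreg cells in WT (blue) and Foxp1-deficient (orange) mice. Lines are 95% intervals, filled circles mark calls at an adjusted p under 0.05 and 2-fold (dotted lines), a bar marks the difference within replicate 1 and a cross that within replicate 2. Satb1, Bach2 and Lef1 are filled in both genotypes, and Myb is filled in Foxp1-deficient cells at -1.22.

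The next comparison asked what loss of Foxp1 changed within resting cells. In rTreg cells 1 of the 9 factors, Myb, passed an adjusted p under 0.05 with at least 1.5-fold, against 5.60% of all tested genes (2.90% higher and 2.70% lower). Myb had 39.6 and 27.1 CPM in WT cells, compared with 61.0 and 49.3 CPM in Foxp1-deficient cells. Both Foxp1-deficient libraries were above both WT libraries, and within each replicate number the log2 difference was 0.62 and 0.86. The fitted log2 change was 0.74 ± 0.11, a 1.67-fold increase (adjusted p = 0.0060). The call was lost when the replicate block was dropped (0.72, adjusted p = 0.151), on log2(FPKM + 1) with no filter (0.59, adjusted p = 0.118), without WT rTreg replicate 2 (0.59, adjusted p = 0.0657) and without Foxp1-deficient rTreg replicate 2 (0.72, adjusted p = 0.0794). Cd1d1, from the list of immature thymocyte markers, was also higher in the Foxp1-deficient rTreg libraries, at 102 and 88.2 CPM against 53.1 and 53.7 CPM. The summed CPM of the list, 104 and 89.8 against 55.2 and 55.1, rose through Cd1d1. Dntt did not rise, at 1.91 and 1.52 CPM against 2.03 and 1.49 CPM, and Rag1 had 0 reads in the rTreg libraries. The part of Cd1d1 in the Myb result was not tested.

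With the adjusted p alone, which 12.0% of all genes passed, Runx1 was also higher (6.57% of all genes) and Id3 lower (5.45%) in Foxp1-deficient rTreg cells. Runx1 stood at 125 and 114 CPM in WT and 149 and 139 CPM in Foxp1-deficient cells, without overlap (0.27 ± 0.06, adjusted p = 0.0215). Id3 stood at 63.6 and 71.4 CPM in WT and at 46.9 and 57.1 CPM in Foxp1-deficient cells, also without overlap (-0.38 ± 0.07, adjusted p = 0.0121). Without the replicate block neither passed (adjusted p = 0.2001 for Runx1 and 0.251 for Id3). Tcf7 had the same order in both pairs, with 991 and 904 CPM against 1226 and 1114 CPM, but its change of 0.30 ± 0.10 had an adjusted p of 0.0836. Bach2 had 249 and 256 CPM against 208 and 212 CPM, again apart (-0.27 ± 0.13, adjusted p = 0.223). For the other 4 the 95% intervals of the log2 change ran from -0.25 to 0.44 in Lef1, from -0.74 to 0.54 in Satb1, from -0.15 to 0.18 in Ets1 and from -0.16 to 0.46 in Tox. The groups did not overlap in 6 of the 9, with the Foxp1-deficient group above in Tcf7, Myb and Runx1 (22.9% of all tested genes) and below in Bach2, Satb1 and Id3 (22.3%). The median log2 change of the 9 was 0.098 and that of all genes 0.0029.

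In aTreg cells the gene called was a different one. Bach2 was the only factor of the 9 to pass an adjusted p under 0.05 with at least 1.5-fold, against 4.03% of all tested genes (1.66% lower and 2.37% higher). It was also the only one with the adjusted p alone, which 6.88% of all genes passed (2.77% lower and 4.11% higher). WT aTreg cells had 76.4 and 98.3 CPM and Foxp1-deficient aTreg cells 40.9 and 32.6 CPM. Both Foxp1-deficient libraries were below both WT libraries, by 0.90 and 1.59 within the replicate numbers on the log2 scale. The fitted log2 change was -1.25 ± 0.14, a 2.38-fold decrease with a 95% interval from -1.57 to -0.93 (adjusted p = 0.0035). Without the replicate block it was -1.25 as well (adjusted p = 0.0236), and over the 8 fits that left out 1 library it ran from -1.48 to -1.02 with adjusted p-values up to 0.0360. The call was lost on log2(FPKM + 0.1) (-1.25, adjusted p = 0.0517) and on log2(FPKM + 1) with no filter (-1.08, adjusted p = 0.101).

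Of the other factors, Satb1 had the widest interval in this comparison. Lef1 was at 120.3 and 173 CPM in WT and 115 and 110.4 CPM in Foxp1-deficient aTreg cells (-0.38 ± 0.15, adjusted p = 0.178). Satb1 was at 96.0 and 219 CPM in WT and 123 and 117 CPM in Foxp1-deficient aTreg cells, so that the Foxp1-deficient libraries lay between the WT libraries (-0.36 ± 0.29, adjusted p = 0.510, 95% interval -1.02 to 0.31). Without WT aTreg replicate 1, Lef1 (-0.67, adjusted p = 0.0050) and Satb1 (-0.90, adjusted p = 0.0019) were called lower too, and without WT aTreg replicate 2 the Satb1 estimate was 0.36. The intervals were -0.28 to 0.17 for Tcf7, -0.11 to 0.19 for Id3, -0.40 to 0.12 for Myb, -0.11 to 0.23 for Ets1, -0.020 to 0.24 for Runx1 and -0.13 to 0.46 for Tox. The groups did not overlap in Bach2 and Lef1, with the Foxp1-deficient group below (19.6% of all genes), and in Ets1, with it above (22.2%), and the median log2 change was -0.057 against 0.0018 for all genes.

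**Figure D3:**
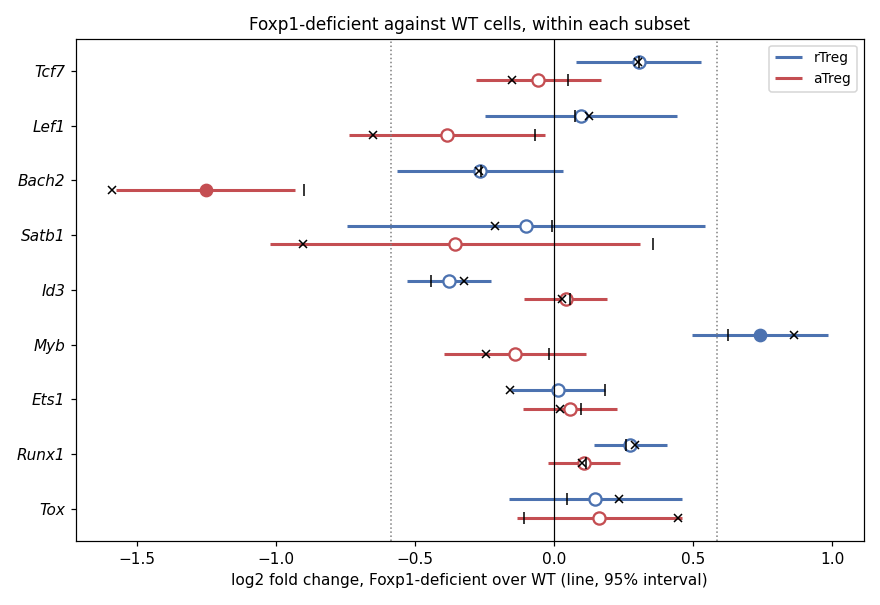
Log2 fold change of each factor between Foxp1-deficient and WT cells in rTreg (blue) and aTreg (red) cells, with lines for 95% intervals, filled circles for calls at an adjusted p under 0.05 and 1.5-fold (dotted lines), a bar for the difference within replicate 1 and a cross for that within replicate 2. Myb is filled in rTreg cells at 0.74 and Bach2 in aTreg cells at -1.25, and the 2 marks of Satb1 in aTreg cells lie on opposite sides of 0.

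Whether the effect of Foxp1 loss differed between the subsets was tested with the interaction term of the same fit. At an adjusted p under 0.05, 0.330% of all tested genes were called and, with edgeR, 0 of the 9. Myb had the smallest adjusted p, with a difference between the effects of -0.88 ± 0.15 on the log2 scale (adjusted p = 0.0605). For Bach2 it was -0.99 ± 0.19 (adjusted p = 0.0752) and for Id3 0.42 ± 0.09 (adjusted p = 0.106). DESeq2 called 2 of the 9, Bach2 (adjusted p = 6.9e-04) and Myb (adjusted p = 0.0139), and limma-voom called none. Over all 14540 tested genes DESeq2 called 279 and limma-voom 43. Over the 8 edgeR fits that left out 1 library, the difference ran from -1.22 to -0.76 in Bach2 and from -1.01 to -0.73 in Myb. It ran from -0.77 to -0.14 in Lef1 and from -0.79 to 0.47 in Satb1. Values for Tox (0.014 ± 0.18) and Ets1 (0.044 ± 0.10) were close to 0, with 95% intervals from -0.41 to 0.44 and from -0.19 to 0.28.

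Over the 4 groups the 9 factors took different orders. The mean level was highest in Foxp1-deficient rTreg cells for Tcf7, Lef1, Myb and Ets1, in WT rTreg cells for Bach2, Satb1 and Id3, and in Foxp1-deficient aTreg cells for Runx1 and Tox. Tcf7, Lef1, Bach2, Satb1 and Myb all had their lowest mean in Foxp1-deficient aTreg cells, although WT aTreg cells differed from these by an adjusted p under 0.05 only in Bach2. The highest group mean was 6.87 times the lowest in Bach2 and 6.15 times in Satb1, followed by 2.88 in Lef1, 2.32 in Myb and 2.14 in Tox. In Tcf7, Runx1, Id3 and Ets1 it was 1.59, 1.38, 1.30 and 1.14 times the lowest.

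The spread within a group was not even. In WT aTreg cells the Satb1 libraries differed by 1.19 on the log2 scale, with replicate 2 above replicate 1, which is more than for 93.1% of tested genes, whose median absolute difference was 0.217. Lef1 (0.53), Bach2 (0.36) and Tcf7 (0.28) were also higher in replicate 2, and Tox (-0.63) was lower. Cd44, the gene of a sorting marker, was level at 213 and 214 CPM. Dapl1, with 131 against 5 reads, and Dntt, with 21 against 0 reads, were higher in WT aTreg replicate 2 too. So was Actn1, at 148 CPM in replicate 1 and 211 CPM in replicate 2. Ccr7 (205 and 196 CPM) and Nsg2 (221 and 214 CPM) were not. The part of WT aTreg replicate 2 in the results above is given by the fits that leave out 1 of the libraries, and its cause was not tested. In the Foxp1-deficient aTreg libraries the same difference was -0.067 for Satb1, -0.054 for Lef1, -0.33 for Bach2, 0.077 for Tcf7 and -0.077 for Tox. Across all groups replicate 2 was higher than replicate 1 in Id3 (0.22, adjusted p = 0.0159) and lower in Myb (-0.34, adjusted p = 0.0217), as the block term of the fit gave, and 18.5% of all tested genes passed the same test.

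**Figure D4:**
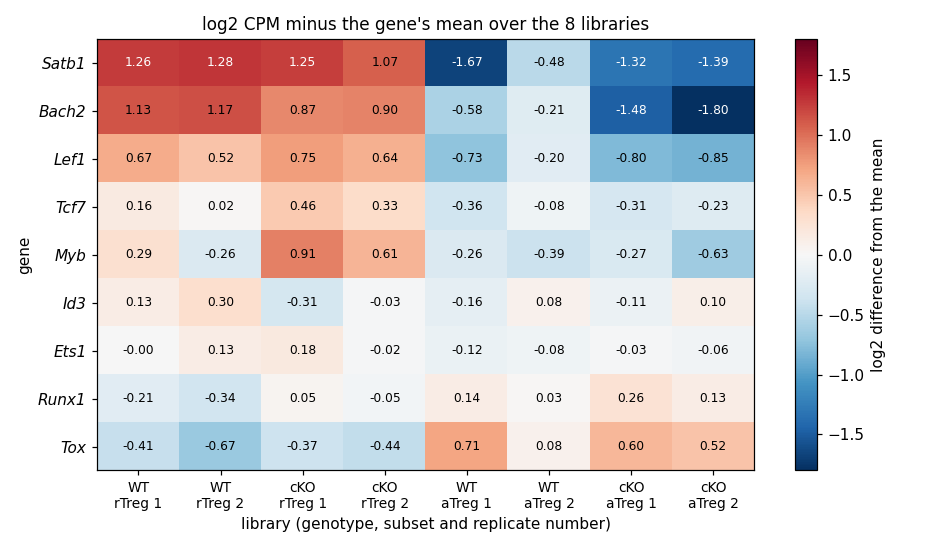
Log2 CPM of each factor in each library minus the mean of the gene over the 8 libraries, in red for above and blue for below. WT aTreg replicate 2 has weaker values than WT aTreg replicate 1 in Satb1 (-0.48 against -1.67), Lef1 (-0.20 against -0.73) and Tox (0.08 against 0.71).

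Relatives and binding partners of the 9 factors were read from 8 lists with 47 genes, of which 39 were tested. In WT cells 3 of them were called higher and 3 lower in aTreg than in rTreg cells, and in Foxp1-deficient cells 4 and 4, while 9.50% and 2.83% of all tested genes were called higher and lower in WT and 11.3% and 4.39% in Foxp1-deficient cells. Tcf7l2, a TCF relative, was at 1.38 and 2.28 CPM in WT rTreg and at 0.110 and 0.192 CPM in WT aTreg cells, near 1 to 3 reads in the latter. The TLE corepressor Tle3 was steady at 371 to 456 CPM over the libraries and was called in no comparison. Id2, the other abundant Id gene, was at 19.5 and 36.1 CPM in WT rTreg and at 75.2 and 96.2 CPM in WT aTreg cells (1.63 ± 0.18, adjusted p = 4.8e-04), a direction opposite to that of Id3. Tox2 was at 0.460 and 0.471 CPM in WT rTreg and at 116 and 78.7 CPM in WT aTreg cells (adjusted p = 6.9e-06), so it moved in the same direction as Tox over a far wider range. Runx3 had 56.0 and 56.3 CPM in WT rTreg and 96.3 and 99.2 CPM in WT aTreg cells (0.80 ± 0.11, adjusted p = 0.0012), and Cbfb, the partner of the RUNX factors, 194 and 216 CPM against 159 and 197 CPM (-0.21 ± 0.06, adjusted p = 0.0350), both inside 2-fold. Bach1, the other BACH gene, was at 59.0 and 48.1 CPM against 37.7 and 38.9 CPM (-0.47 ± 0.10, adjusted p = 0.0088).

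By genotype, 3 of the 39 relatives were called in rTreg cells and 1 in aTreg cells, shares near the 5.60% and 4.03% of all tested genes. In rTreg cells Etv6, an ETS repressor, rose from 43.9 and 50.1 CPM to 77.5 and 73.7 CPM (0.68 ± 0.09, adjusted p = 0.0047), Mybl2, a MYB relative of dividing cells, from 5.71 and 5.58 CPM to 9.24 and 8.88 CPM (0.67 ± 0.18, adjusted p = 0.0476), and the E protein gene Tcf4 fell from 7.37 and 8.01 CPM to 5.10 and 3.10 CPM (-0.98 ± 0.25, adjusted p = 0.0431). Mybl2 rose in aTreg cells too (0.82 ± 0.16, adjusted p = 0.0263), where Myb itself did not pass the test. Mybl1 was at 0.645 to 2.44 CPM over the libraries. Fli1, an ETS relative, was at 117 and 133 CPM in WT aTreg and at 146 and 170.0 CPM in Foxp1-deficient aTreg cells (0.33 ± 0.06, adjusted p = 0.0215), inside 1.5-fold, and Ets2 was called in no genotype comparison.

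Other genes of the resting T cell state were read from a list of 15, all tested. In WT cells 8 of the 15 were called lower in aTreg than in rTreg cells and none of the other 7 higher, and in Foxp1-deficient cells 10 were lower and Il7r was higher. Of all tested genes 2.83% were called lower and 9.50% higher in WT cells, and 4.39% and 11.3% in Foxp1-deficient cells. The median log2 change of the list was -1.09 in WT and -1.73 in Foxp1-deficient cells, against -0.0046 and -0.018 for all genes. By genotype, where 5.60% of all genes were called in rTreg and 4.03% in aTreg cells, Actn1 was lower and Ly6c1 higher in Foxp1-deficient rTreg cells. In aTreg cells Ccr7, Actn1, Dapl1 and Nsg2 were lower in Foxp1-deficient cells, as Bach2 was, and S1pr1, the receptor for egress from lymph nodes, was higher. Dapl1 was uneven in WT aTreg cells, at 0.549 and 8.40 CPM. Ccr7, the lymph node homing receptor, was at 205 and 196 CPM in WT and at 79.6 and 59.1 CPM in Foxp1-deficient aTreg cells (-1.56 ± 0.10, adjusted p = 6.0e-04).

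Of 8 effector factors listed as counterparts, 6 were called higher in aTreg than in rTreg cells of WT mice and 7 in those of Foxp1f/fFoxp3Cre mice, against 9.50% and 11.3% of all tested genes. Prdm1, which encodes Blimp1, was at 9.21 and 9.35 CPM in WT rTreg, 54.5 and 48.7 CPM in WT aTreg and 72.01 and 90.3 CPM in Foxp1-deficient aTreg cells. Its increase by genotype in aTreg cells was 0.65 ± 0.13 (adjusted p = 0.0277), and a link to the lower Bach2 was not tested. Rora rose by genotype in aTreg cells as well, from 162 and 140 CPM to 248 and 243 CPM (0.71 ± 0.13, adjusted p = 0.0196). These were the 2 of the 8 called there, against 4.03% of all tested genes. With the adjusted p alone 3 of the 8 were higher (4.11% of all genes) and 1, Ikzf3, was lower (2.77%). The Ikzf3 change was -0.54 ± 0.11 (adjusted p = 0.0269), inside 1.5-fold. In rTreg cells Maf and Ikzf3 were called lower in Foxp1-deficient cells (-0.90 ± 0.13 and -0.69 ± 0.11), 2 of the 8 against 5.60% of all tested genes.

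Profiles over the 8 libraries were compared with those of 8968 genes with a mean of at least 10 CPM, by the root mean square (RMS) difference of log2 values after each gene was centred on its own mean. The nearest to Satb1 were Gpr146 (RMS difference 0.211), Treml2 (0.247) and Cyp2d22 (0.272), and among the nearest to Bach2 were Sgk3 (0.201) and Slc30a4 (0.251). Lef1 was nearest to Zfp652 (0.123), BC043934 (0.138) and the TLE corepressor gene Tle1 (0.141). Tle1 was at 26.1 and 24.5 CPM in WT rTreg and 12.6 and 13.6 CPM in WT aTreg cells. For Myb they were Ntpcr (0.117), Ncf1 (0.156) and Trbv2 (0.163), and for Tox they were Srgn (0.0774), Dus2 (0.0782) and Impa2 (0.0934). Tcf7 was nearest to Gm43481 (0.0674), Psmg1 (0.0808) and Ppm1h (0.0809), and Id3 to Rb1cc1 (0.0584), Smcr8 (0.0618) and Eps15 (0.0636). Ets1 was nearest to Map1s (0.0233), Qrsl1 (0.0339) and Cops8 (0.0413), and among the nearest to Runx1 were Vcp (0.0414) and Zmat5 (0.0443). Genes with small changes have small differences by this measure, so its size says little between factors. Among the 9 themselves Id3 and Ets1 (0.209) and Tcf7 and Ets1 (0.224) were the closest pairs.

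Exons of 6 of the 9 genes overlap those of another annotated gene. The library kit does not mark the strand, so reads of a gene and its antisense partner cannot be told apart in the shared bases. The largest shared stretch was 1208 bases between Lef1 and Gm43352, which had 7 to 23 reads per library, followed by 559 bases between Myb and Gm26577 (at most 8 reads) and 537 bases between Bach2 and Bach2os (7 to 36 reads). Satb1 shares 128 bases with Gm6934 (9 to 147 reads) and 156 bases with Gm36931 on its own strand (7 to 76 reads). The merged exon lengths are 8788 bases in Lef1, 8933 in Myb, 9940 in Bach2 and 19027 in Satb1, so the shared part is largest in Lef1. How reads in shared bases were assigned is not given in the sources used here. The read counts of the partners therefore do not measure the effect of the overlap.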

How the data were processed

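RNA was extracted with TRIzol from sorted cells, and libraries were made with the NEBNext Ultra RNA kit. Per the labels and the study's methods, the authors trimmed adapters and low-quality ends (trim_galore), took out duplicate reads (Picard) and then counted per gene (htseq-count), and the submitters' processing notes name HISAT2 2.0.5, HTSeq and mm10. The strand setting and annotation are not given in the sources used here. The authors deposited raw counts, whole numbers per Ensembl gene and library. They also deposited FPKM values, which equal the count over the library total and a fixed length per gene (largest relative deviation 1.19e-05 over 11394 genes). Removing duplicates can lower the counts of abundant genes.

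The counts were tested with edgeR 4.0.16 in R 4.3.3 (TMM factors, filterByExpr with a minimum count of 10, glmQLFit and glmQLFTest). One fit held all 8 libraries, with a mean for each of the 4 groups and the replicate number as a block, since the study compared paired samples to compensate for a batch effect. In all 6 pairs of groups, libraries with the same number deviated together from their group means (correlations 0.309 to 0.551). Replicate 1 libraries had Y-linked reads and at most 3 Xist reads, and replicate 2 libraries 15098 to 21822 Xist reads and no reads of 4 Y-linked genes, so sex, replicate number and any sequencing round cannot be told apart. P-values were adjusted by Benjamini-Hochberg over 14540 genes, and 13054 were left out by the filter. A call needed an adjusted p under 0.05 with 1.5-fold between genotypes or 2-fold between subsets, and for the interaction the adjusted p alone. SEs are those of the log2 change, intervals are 95%, and CPM values carry the TMM factors. Every one of the 9 factors is named. Of the other lists, genes called by genotype and a fixed set of counterparts are named, and for each factor the 3 genes with the nearest profile, except that a few of these genes are not reported here. The factors and lists were chosen with earlier results of these data known. Alternatives were no replicate block, limma-voom (limma 3.58.1) with and without quality weights, DESeq2 1.42.0, median-of-ratios factors, other filters, the libraries of a comparison alone, limma on log2(FPKM + 1) and log2(FPKM + 0.1), and leaving out each library. The scripts were tested on simulated data. Positions are from GENCODE M21, whose reference annotation holds 27479 of the 27594 identifiers.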

Additional observations from a re-analysis of the deposited data

Results flagged for a closer look

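The effect of Foxp1 loss differed between aTreg and rTreg cells, by the interaction test of the edgeR fit, in 3 of 93 tested genes among the factors, Foxp1 and the lists named above, against 0.330% (48) of all 14540 tested genes. Without the replicate block 0 genes were called in this test, on log2(FPKM + 1) 2 and with DESeq2 279. Foxp1 itself had a log2 difference between the effects of -0.92 ± 0.13 (SE; adjusted p = 0.0477), with -0.12 in rTreg and -1.03 in aTreg cells. Its count is over the whole gene, and reads of the floxed part were not counted apart, so these values do not measure the deletion. The cause of the difference between the subsets was not tested. The study reported complete loss of Foxp1 in Treg cells of Foxp1f/fFoxp3Cre mice, by immunoblot, mRNA level and intracellular staining. Ccr7 had -1.08 ± 0.14 (adjusted p = 0.0316), with 397 and 308 CPM in WT rTreg, 298 and 212 CPM in Foxp1-deficient rTreg, 205 and 196 CPM in WT aTreg and 79.6 and 59.1 CPM in Foxp1-deficient aTreg cells. Nsg2 had -0.82 ± 0.11 (adjusted p = 0.0322), with -0.16 in rTreg and -0.97 in aTreg cells.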

How the results depend on the processing

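Over 846 alternative values of 45 changes of the 9 factors, 820 stayed on the same side of the thresholds, 12 lost a call and 14 gained one. Of the called changes 0 turned their direction from that of the fit reported above, while uncalled estimates near 0 crossed it at times. The genotype change of Satb1 in aTreg cells, not called above, was -0.90 without WT aTreg replicate 1 and 0.36 without WT aTreg replicate 2. Its sign thus depended on the library left out. In rTreg cells the number of factors called by genotype was 1 as reported and 0 without the replicate block and on log2(FPKM + 1) with no filter. In aTreg cells it was 1, and 0 on log2(FPKM + 0.1) (Bach2 -1.25, adjusted p = 0.0517) and on log2(FPKM + 1) with no filter. For the interaction it was 0, and 2 with DESeq2 and with no filter on low counts. Over all genes that test called 279 of 14540 with DESeq2 and 573 of 27594 with no filter. The causes were not tested. With 1 library left out the numbers ran from 0 to 1 for rTreg and 1 to 3 for aTreg cells by genotype, 2 to 4 in WT and 4 to 5 in Foxp1-deficient cells by subset, and 0 to 4 for the interaction. The lone library of a group was then assumed to vary like the others. The calls lost were Myb in rTreg cells and Lef1 in WT cells, and those gained rested mostly on leaving out WT aTreg replicate 1. Without the replicate block, every other call past both thresholds in the 9 factors was kept, while 6 changes that passed on the adjusted p alone no longer did. The same 6 also missed it in a fit with 1 library left out, with highest adjusted p-values from 0.0892 to 0.361. Over all genes, dropping the block moved the calls from 814 to 266 in rTreg cells, from 586 to 77 in aTreg cells and from 48 to 0 in the interaction. Each factor had at least 247 reads in every library and each group 2 libraries. The parts of counting error and of spread between libraries in the SEs were not separated.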
